A study of Oryza sativa with 16 samples.

Results

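The 4 genes described here, OsPP2C06, OsPP2C08, OsPP2C30 and PP2C68, encode protein phosphatases 2C of the core abscisic acid (ABA) pathway of rice. They were chosen by name from an account of these same arrays, on the measured values of their probe sets over the 8 conditions, so that their levels and differences are given below as a description and carry no test. They are 4 of the 17905 genes that the array's annotation names through probe sets of a single gene. RefSeq lists OsPP2C06 (NCBI gene ID 4324201) also as ABIL1, gives no other name for OsPP2C08 (gene ID 4324182) or OsPP2C30 (gene ID 4332374) beyond spellings and locus tags, and lists PP2C68 (gene ID 4346736) also as OsPP108 and OsSIPP2C1. Each gene had 1 probe set on the array, none with the suffix that marks probes shared between transcripts, and all 4 passed the filter on low signal.

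ABA is the hormone that builds up in maturing seeds and in plants under cold, drought or salt. In its absence, PP2C phosphatases of group A hold SnRK2 kinases (called SAPK in rice) inactive by dephosphorylating them. ABA bound to its PYL/RCAR receptors makes the receptors seize the phosphatases, the kinases are released, and they phosphorylate bZIP transcription factors such as TRAB1 and BZIP23, which switch on genes of late embryogenesis abundant (LEA) proteins and dehydrins. Many group A PP2C genes are themselves induced by ABA, and the pathway is thereby damped by its own output.

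Transcripts of whole seeds were measured on 16 Affymetrix rice genome arrays, from 2 cultivars of japonica rice grown at a day temperature of 28 °C and a night temperature of 22 °C. Zhonghua 11 (ZH), sensitive to low temperature, was sampled at 4, 6, 10 and 12 days after fertilization (DAF) at normal temperature (ZH 4D, ZH 6D, ZH 10D, ZH 12D) and after 2 days at 14 °C begun at 4 or 10 DAF (ZH 4D-2DC, ZH 10D-2DC). Hanfeng (HF), tolerant of low temperature, was sampled at 4 DAF (HF 4D) and, like ZH, following cold begun at 4 DAF (HF 4D-2DC). There were 2 arrays for each of the 8 conditions, which the labels call biological replicates without saying whether separate plants were used, so that p-values capture no more than the spread between these samples. The cold seeds of ZH had a control of the same age, at 6 or 12 DAF; no HF array at 6 DAF was analysed here, and cold HF seeds therefore differed from HF 4D in age as well as in temperature.

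The values are array signals on a linear scale, with no read depth, and the precision is limited by having 2 arrays per condition. Arrays of replicate 1 had median signals over all probe sets of 85.9 to 172, whereas arrays of replicate 2 had 49.8 to 60.1, and differences are therefore also given within each replicate number. The seed label was checked with storage protein and starch genes of the endosperm. The summed signal of 10 such genes was 177889 to 1454480 on 14 arrays, but only 26968 on ZH 4D replicate 2 and 45662 on HF 4D replicate 1. Of these genes, GLUB4 was at 3.0 to 397 on every array, and the prolamin gene had a signal of 3.04 on its lowest array. Embryo genes (VP1, OSH1 and EMP1) summed to 860 to 1295 in ZH 4D and to 37216 to 56675 in ZH 12D. Green tissue genes (CAB2R, LHCP, RBCS and RBCS1) differed between the replicate numbers in older ZH seeds. For replicates 1 and 2 they summed to 3357 and 54106 in ZH 10D and to 3573 and 37134 in ZH 12D. Replicate 1 was the higher in ZH 4D (33250 and 32789) and in HF 4D (79322 and 60177). In whole seeds, fewer cells of a type and less RNA per cell cannot be told apart.

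**Figure D1:**
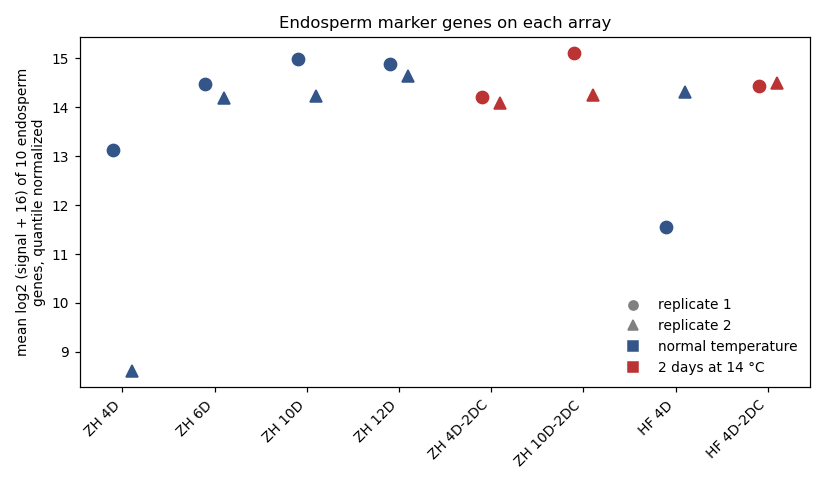
Mean log2(signal + 16) of 10 endosperm genes after quantile normalization (vertical axis) on each of the 16 arrays, by condition (horizontal axis), with circles for replicate 1, triangles for replicate 2, blue for normal temperature and red for 2 days at 14 °C. ZH 4D replicate 2, at 8.60, and HF 4D replicate 1, at 11.54, lie below the 13.1 to 15.1 of the other 14 arrays.

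PP2C68 had the widest range of the 4. Its signal was 182 and 1146 on the 2 arrays of ZH 4D, 217 and 360 in ZH 6D, 273 and 693 in ZH 10D, and 239 and 481 in ZH 12D, each time for replicates 1 and 2. After cold it was 312 and 2348 in ZH 4D-2DC and 1617 and 5439 in ZH 10D-2DC. In HF it was 543 and 310 in HF 4D and 294 and 1135 in HF 4D-2DC. Both arrays of ZH 10D-2DC lay above all the arrays at normal temperature, and the array of replicate 2 lay above that of replicate 1 in 7 of the 8 conditions. On the log2(signal + 16) scale the condition means ran from 8.21 ± 0.49 (SD, n = 2) in ZH 6D to 11.54 ± 1.23 (SD, n = 2) in ZH 10D-2DC, a 10.1-fold range. The order of the means was ZH 10D-2DC, ZH 4D-2DC, HF 4D-2DC, ZH 4D, ZH 10D, HF 4D, ZH 12D and ZH 6D, with the 3 cold conditions first. Neighbours in that order overlapped at every step.

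OsPP2C30 also had its highest mean after cold at 10 DAF. Its signal was 933 and 3059 in ZH 4D, 1205 and 1030 in ZH 6D, 4122 and 2301 in ZH 10D, and 1630 and 1454 in ZH 12D. The cold arrays gave 1465 and 4835 in ZH 4D-2DC and 4970 and 8417 in ZH 10D-2DC. The HF arrays gave 5197 and 942 in HF 4D and 1540 and 2229 in HF 4D-2DC. HF 4D replicate 1, one of the arrays with low endosperm genes, was higher than any other array outside ZH 10D-2DC. At 5197 it also lay above ZH 10D-2DC replicate 1, at 4970. The means ran from 10.14 ± 0.16 (SD, n = 2) in ZH 6D to 12.66 ± 0.54 in ZH 10D-2DC, a 5.74-fold range. ZH 10D-2DC stood clear of its neighbour ZH 10D (11.60 ± 0.59) and ZH 12D (10.60 ± 0.12) stood clear of ZH 6D, while ZH 10D, ZH 4D-2DC, HF 4D, HF 4D-2DC, ZH 4D and ZH 12D overlapped at each step between them.

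OsPP2C06 varied least between conditions and was highest in the cold ZH seeds. Its signal was 4114 and 1499 in ZH 4D, 3349 and 2093 in ZH 6D, 2454 and 2285 in ZH 10D, and 2673 and 2262 in ZH 12D. It was 5833 and 4221 in ZH 4D-2DC and 2639 and 5049 in ZH 10D-2DC. It was 3826 and 1381 in HF 4D and 3563 and 1891 in HF 4D-2DC. Both arrays of ZH 4D-2DC lay above all the arrays of ZH and HF at normal temperature, and at 10 DAF the cold arrays straddled that height. The means ran from 11.18 ± 1.03 (SD, n = 2) in HF 4D to 12.28 ± 0.33 in ZH 4D-2DC, a 2.15-fold range, and every neighbour in the order overlapped the next. In 7 of the 8 conditions the array of replicate 1 gave the higher signal, the opposite of PP2C68; the exception was ZH 10D-2DC.

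Among the ZH conditions, OsPP2C08 had its highest means in the 3 older ones. Its signal was 691 and 2026 in ZH 4D, 599 and 901 in ZH 6D, 1714 and 3018 in ZH 10D, and 1436 and 2179 in ZH 12D. After cold it was 695 and 1813 in ZH 4D-2DC and 2515 and 2805 in ZH 10D-2DC. It was 3588 and 1430 in HF 4D and 694 and 1463 in HF 4D-2DC. All the arrays of the 3 older ZH conditions lay at 1436 or above, and those of ZH 6D lay at 901 or below. The means ran from 9.55 ± 0.41 (SD, n = 2) in ZH 6D to 11.38 ± 0.11 in ZH 10D-2DC, a 3.56-fold range with overlap at every step of the order.

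**Figure D2:**
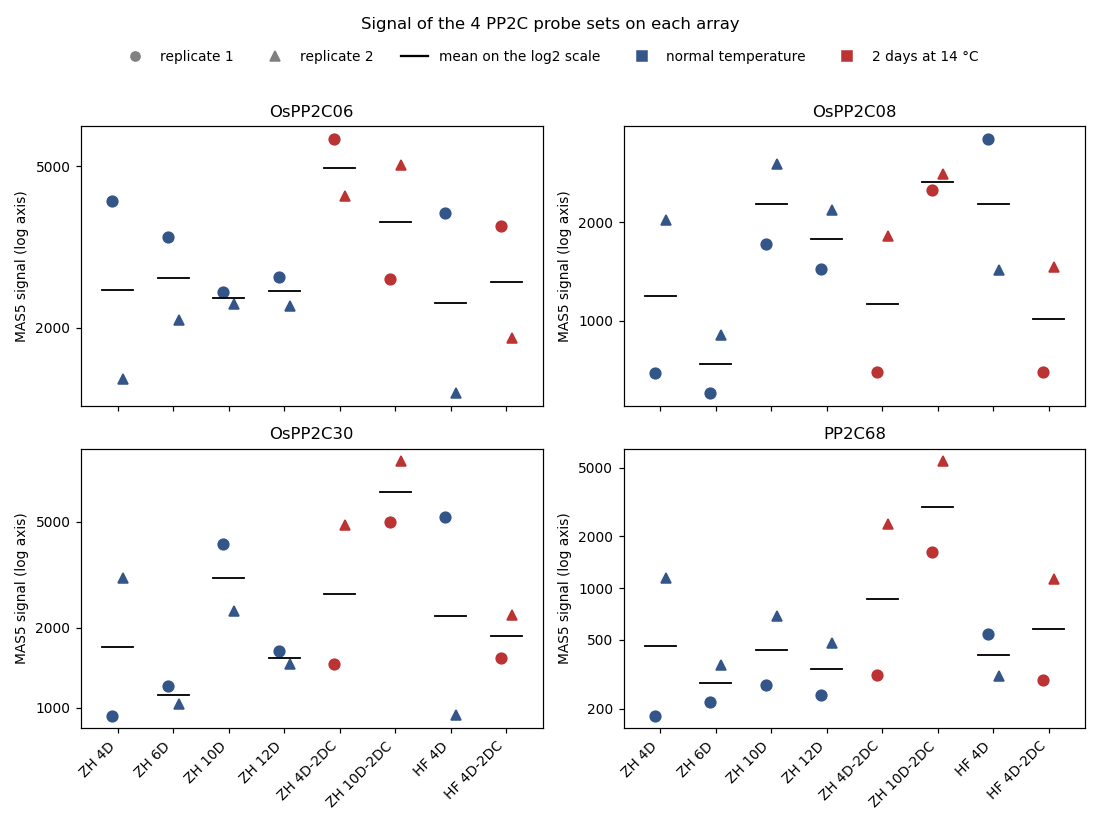
Signal of the 4 PP2C probe sets (vertical axes, log scale) on every array, by condition; circles are replicate 1, triangles replicate 2, blue is normal temperature, red is 2 days at 14 °C, and the line is the mean on the log2 scale. PP2C68 and OsPP2C30 have their highest means in ZH 10D-2DC, with signals of 1617 and 5439 and of 4970 and 8417.

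The spread between arrays of 1 condition was large beside these ranges. The pooled SD within conditions was 0.64 (log2) for OsPP2C06, 0.73 for OsPP2C08, 0.92 for OsPP2C30 and 1.25 for PP2C68, over 8 conditions of 2 arrays. Condition accounted for 38.4% of the variance of OsPP2C06, 59.2% of that of OsPP2C08, 55.1% of that of OsPP2C30 and 55.5% of that of PP2C68. With only 2 arrays in each of 8 conditions, condition takes a large share of the variance even where it has no effect. No effect of condition is therefore read from these shares. The replicate number took a further 28.0% for PP2C68, whose replicate 2 was on average 1.40 (log2) above replicate 1, and 22.0%, 13.8% and 0.443% for OsPP2C06, OsPP2C08 and OsPP2C30. Part of the scatter of PP2C68 was thus shared by all the arrays of a replicate number, and that of OsPP2C30 was not.

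The first question of the design is what 2 days at 14 °C did to seeds of ZH, at an early stage and at a later one. After cold from 10 DAF, all 4 PP2C means lay above those of ZH 12D, and PP2C68 and OsPP2C30 were furthest from them. PP2C68 was 8.37-fold higher, a log2 difference of 3.07 (SE 1.11, n = 2 against 2), with 2.68 between the arrays of replicate 1 and 3.46 between those of replicate 2. OsPP2C30 was 4.17-fold higher, a log2 difference of 2.06 (SE 0.88), with 1.60 and 2.52 within the replicate numbers. For both genes each cold array lay above each control array. OsPP2C08 differed by 0.58 (SE 0.76), with 0.80 and 0.36 within the replicate numbers, and its arrays did not overlap either. OsPP2C06 differed by 0.57 (SE 0.71), all of it from replicate 2 (1.15, against -0.02 in replicate 1), and its arrays overlapped. The arrays did not overlap for 3 of the 4 genes, where 12.8% of all 34331 probe sets tested were higher without overlap; the genes were picked on these values and nothing is read from the count. Their median difference was 1.32, where the median of all probe sets tested was -0.02. Summed embryo genes were higher after cold, at 89596 and 42668 against 56675 and 37216 in ZH 12D. Most of that sum was EMP1, at 85759 and 38068 against 52870 and 32902, while VP1 was at 3515 and 4207 against 3479 and 4042. Summed green tissue genes were lower, at 1621 and 24580 against 3573 and 37134. Summed endosperm genes were at 1454480 and 276417 against 1105670 and 332039. The part of these tissues in the differences was not tested.

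Against the seeds of ZH at the start of that treatment, PP2C68 and OsPP2C30 were again furthest above the control. Relative to ZH 10D, PP2C68 was 2.72 higher in log2 (SE 1.11; 2.50 and 2.94 within the replicate numbers), OsPP2C30 1.07 (SE 0.88; 0.27 and 1.86), OsPP2C06 0.62 (SE 0.71) and OsPP2C08 0.22 (SE 0.76). The arrays of PP2C68, OsPP2C30 and OsPP2C06 did not overlap, 3 of 4 genes, with 11.0% of all probe sets tested higher without overlap. OsPP2C30 was therefore nearer to the cold level in ZH 10D than in ZH 12D, and PP2C68 was far below it in both. The ZH 10D-2DC arrays are shared by these comparisons.

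After cold from 4 DAF the differences of the 4 genes from ZH 6D were all above 0 and came mostly from replicate 2. The log2 difference was 1.57 (SE 1.11) for PP2C68, with 0.49 between the arrays of replicate 1 and 2.65 between those of replicate 2. It was 1.25 (SE 0.88) for OsPP2C30, with 0.28 and 2.21. OsPP2C06 differed by 0.90 (SE 0.71) and did so alike in both replicate numbers, by 0.80 and 1.01. OsPP2C08 differed by 0.60 (SE 0.76), with 0.21 and 1.0, and came to -0.08 when the array of ZH 4D-2DC replicate 2 was left out. OsPP2C06 and OsPP2C30 had no overlap between the arrays, 2 of 4 genes, where 12.4% of all probe sets tested were higher without overlap. The median of the 4 was 1.07, against 0.04 for all probe sets tested, and it was 0.39 within replicate 1, 1.61 within replicate 2 and 0.27 without ZH 4D-2DC replicate 2. Summed endosperm genes were lower after cold, at 462272 and 177889 in ZH 4D-2DC against 1060290 and 254491 in ZH 6D. Summed green tissue genes were lower too, at 9515 and 28936 against 15369 and 43681. Embryo genes summed to 3881 and 12605 against 4364 and 5871. Of that sum, EMP1 was at 2220 and 10998 against 2248 and 4535, and VP1 at 1277 and 1203 against 2036 and 1217. The part of these tissues in the differences was not tested.

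Against the seeds at the start of the early treatment, the genes stood in another order. ZH 4D-2DC was 0.99 (log2, SE 0.71) above ZH 4D for OsPP2C06, with no overlap, as for 11.7% of all probe sets tested; 1 of the 4 genes had none. PP2C68 differed by 0.88 (SE 1.11), OsPP2C30 by 0.65 (SE 0.88) and OsPP2C08 by -0.08 (SE 0.76). Between the arrays of replicate 1, which leave out ZH 4D replicate 2, the differences were 0.73 for PP2C68, 0.64 for OsPP2C30, 0.50 for OsPP2C06 and 0.01 for OsPP2C08.

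The treatments at the 2 ages can be set side by side for ZH, since they share no array. The difference at 10 DAF exceeded that at 4 DAF by 1.49 (log2, SE 1.57) for PP2C68 and by 0.81 (SE 1.25) for OsPP2C30. It was -0.02 (SE 1.08) for OsPP2C08 and -0.34 (SE 1.01) for OsPP2C06. Each of these 4 values was smaller than its own standard error, and the sign was the same in both replicate numbers for PP2C68 (2.18 and 0.80) and OsPP2C30 (1.32 and 0.31) but not for the other pair.

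**Figure D3:**
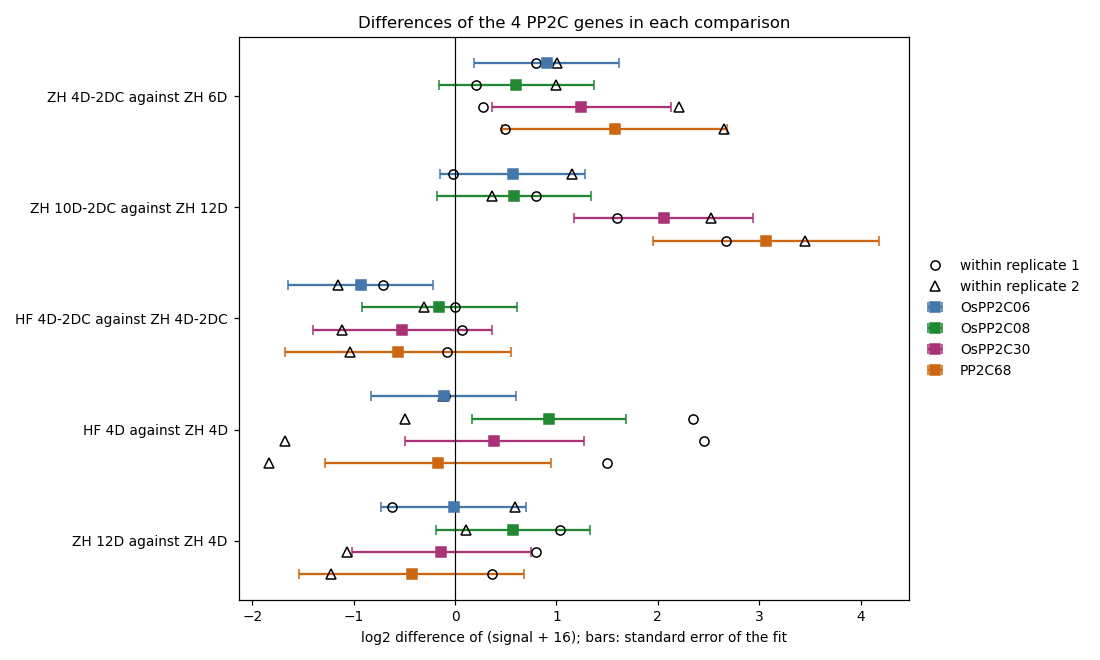
Log2 differences of signal + 16 for the 4 PP2C genes (horizontal axis) in 5 comparisons (rows); squares are the fitted differences with bars of 1 standard error, and open circles and triangles are the differences within replicates 1 and 2. The widest differences are those of PP2C68 (3.07) and OsPP2C30 (2.06) for ZH 10D-2DC compared with ZH 12D, whereas for HF 4D compared with ZH 4D the replicate numbers lie on opposite sides of 0 for 3 genes.

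The second question is how the tolerant cultivar differed from the sensitive one. Before cold, at 4 DAF, none of the 4 genes separated the cultivars. The log2 difference of HF 4D from ZH 4D was 0.93 (SE 0.76) for OsPP2C08, 0.39 (SE 0.88) for OsPP2C30, -0.11 (SE 0.71) for OsPP2C06 and -0.17 (SE 1.11) for PP2C68, and all 4 genes overlapped. Within the replicate numbers the signs were opposed for 3 of them. Between the arrays of replicate 1 the differences were 2.35, 2.46 and 1.5 for OsPP2C08, OsPP2C30 and PP2C68, and between those of replicate 2 they were -0.50, -1.68 and -1.84. In each cultivar the array with the lower endosperm genes (ZH 4D replicate 2, HF 4D replicate 1) had the higher OsPP2C08, OsPP2C30 and PP2C68. For OsPP2C06 the low-endosperm array was the lower one in ZH (1499 against 4114) and the higher one in HF (3826 against 1381). The part of the endosperm in these differences was not tested. Without both of those arrays, a choice made after seeing the data, the differences were -1.56 (SE 0.84) for OsPP2C06, 1.03 (SE 0.95) for OsPP2C08, 0.01 (SE 0.96) for OsPP2C30 and 0.72 (SE 1.49) for PP2C68, each from 1 array against 1.

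After cold from 4 DAF, all 4 PP2C means were lower in HF than in ZH. OsPP2C06 was -0.93 (log2, SE 0.71) in HF 4D-2DC against ZH 4D-2DC, with -0.71 and -1.15 within the replicate numbers, and both HF arrays (3563 and 1891) lay below both ZH arrays (5833 and 4221). It was the only one of the 4 genes without overlap, where 13.0% of all probe sets tested were lower without overlap. The difference was -0.56 (SE 1.11) for PP2C68, -0.52 (SE 0.88) for OsPP2C30 and -0.15 (SE 0.76) for OsPP2C08. These 3 lay near 0 between the arrays of replicate 1, at -0.08, 0.07 and -0.002, and below it between those of replicate 2, at -1.04, -1.11 and -0.31. The median of the 4 was -0.54, against -0.10 for all probe sets tested, and it was 0.43 without ZH 4D-2DC replicate 2. Summed green tissue genes were higher in HF, at 19343 and 43891 against 9515 and 28936. Summed embryo genes were higher as well, at 4745 and 19962 against 3881 and 12605. They were mostly EMP1, at 3261 and 17571 against 2220 and 10998, with VP1 at 1319 and 2094 against 1277 and 1203. Summed endosperm genes were at 361103 and 304578 against 462272 and 177889. The part of these tissues in the differences was not tested. This comparison shares its ZH arrays with that of ZH 4D-2DC against ZH 6D.

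Within HF, cold seeds were set against younger seeds, and none of the 4 genes kept its sign in both replicate numbers. The log2 difference of HF 4D-2DC from HF 4D was 0.49 (SE 1.11) for PP2C68, 0.17 (SE 0.71) for OsPP2C06, -0.26 (SE 0.88) for OsPP2C30 and -1.16 (SE 0.76) for OsPP2C08. Between the arrays of replicate 2, which leave out HF 4D replicate 1, the values were 1.82 for PP2C68, 1.23 for OsPP2C30, 0.45 for OsPP2C06 and 0.03 for OsPP2C08. Set against the same step in ZH, from ZH 4D to ZH 4D-2DC, the HF step differed by -0.39 (SE 1.57) for PP2C68, by -1.08 (SE 1.08) for OsPP2C08 and by values in between for the others. The sign of that contrast was the same in both replicate numbers for OsPP2C06 alone (-0.60 and -1.03).

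The third question is how the seed changed with age at normal temperature, and between 4 and 12 DAF the 4 PP2C genes differed by less than their standard errors. From ZH 4D to ZH 12D the log2 difference was 0.57 (SE 0.76) for OsPP2C08, -0.02 (SE 0.71) for OsPP2C06, -0.14 (SE 0.88) for OsPP2C30 and -0.43 (SE 1.11) for PP2C68. The arrays overlapped for all 4 genes. The median was -0.08 and became 0.78 without ZH 4D replicate 2. Only OsPP2C08 had the same sign in both replicate numbers. From ZH 4D to ZH 10D the difference of OsPP2C08 was 0.93 (SE 0.76), with 1.29 and 0.57 within the replicate numbers. The signs of the others turned between the replicate numbers: OsPP2C30 gave 2.12 and -0.41, PP2C68 0.55 and -0.71, and OsPP2C06 -0.74 and 0.60.

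The other genes of the ABA pathway were taken as whole lists, drawn up with earlier results of these data known. Of 34 such genes outside the 4, found by symbol in 6 lists, 28 had a probe set and all 28 were tested with limma at the threshold that the study's methods set for genes regulated by low temperature, an unadjusted p under 0.05 and over 2-fold; the same threshold was used here for age and cultivar. From ZH 4D to ZH 12D, 8 of the 28 were higher and 0 were lower, where 5.68% and 4.35% of all probe sets tested were. Of the 8 LEA and dehydrin genes, 6 rose at a p under 0.05 after Benjamini-Hochberg adjustment over the 34331 probe sets. RAB21, a dehydrin, had signals of 113 and 5.36 in ZH 4D and 92578 and 34816 in ZH 12D, a log2 difference of signal + 16 of 10.08 (SE 1.74, limma adjusted p = 0.0228). With its signal in ZH 4D so low, the size of that difference rested on the pseudocount, and was 11.04 with 1 and 9.0 with 64 in place of 16. RAB25, a dehydrin as well, had 63.7 and 35.1 in ZH 4D and 34160 and 18740 in ZH 12D, a difference of 8.63 (SE 1.09, limma adjusted p = 0.00603). In ZH 4D these signals were near or below the median of their arrays, and in ZH 12D they were far above it. EM, an LEA gene of the embryo that is the same gene as the embryo marker EMP1, rose by 7.79 (limma adjusted p = 0.00990). RAB16B, RAB16C and LEA3 rose by 6.34, 5.58 and 5.53. The RAB16 genes and RAB21 lie in 1 family of similar sequences, so that their probe sets may share signal. VP1, the B3 transcription factor of the seed that acts with ABA and is also 1 of the embryo markers, differed by 3.78 (SE 1.11, limma adjusted p = 0.202) and SAPK9 by 1.74 (SE 0.66, limma adjusted p = 0.365), and both passed only the methods' threshold. The 6 adjusted calls numbered 5 without ZH 4D replicate 1 and 0 without ZH 4D replicate 2, without ZH 12D replicate 1 or without ZH 12D replicate 2.

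Under cold, no ABA pathway gene outside the 4 passed either threshold in ZH against controls of the same age in the fit with 1 coefficient per condition. In ZH 10D-2DC against ZH 12D, 0 of 28 were called higher and 0 lower, where 1.06% and 1.45% of all probe sets tested were, and over all of them limma called 0 at an adjusted p under 0.05 and 861 at an unadjusted p under 0.05. The median of the 28 was 0.04, with 15 above 0 and 13 below, beside 1.32 for the 4 PP2C genes. The 4 were picked with these values known, so nothing is read from that gap. By list, the LEA and dehydrin genes had a median of 0.67 with all 8 above 0, among them RAB16C at 1.66 (SE 0.89) and RAB16B at 1.0 (SE 0.88). The SnRK2 kinases, the targets of the phosphatases, had a median of -0.35 with 2 above 0 and 8 below. Of the other group A PP2C genes, PP2C09 differed by 1.13 (SE 0.75), PP2C53 by 0.29 (SE 0.90) and PP2C51 by -0.32 (SE 0.89). PYL11, the 1 receptor gene found by symbol, differed by -0.93 (SE 0.64). TRAB1 and BZIP23, the bZIP factors downstream, differed by 0.57 (SE 0.62) and 0.83 (SE 0.80), and the ABA 8′-hydroxylase genes ABA8OX1 and ABA8OX2, which break the hormone down, by -1.16 (SE 1.28) and -0.10 (SE 0.87).

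In ZH 4D-2DC against ZH 6D, 0 of 28 were called in either direction, where 0.647% and 0.562% of all probe sets tested were higher and lower, with limma calling 0 at an adjusted p under 0.05 and 415 at an unadjusted p under 0.05. The median of the 28 was 0.12, with 15 above 0 and 13 below, beside 1.07 for the 4 PP2C genes. Here too the 4 were picked with their values known, and nothing is read from the gap. SAPK1, a SnRK2 kinase, differed by 1.74 (SE 0.98) and BZIP23 by 1.08 (SE 0.80). The LEA and dehydrin genes had a median of -0.01, with 4 above 0 and 4 below. The group A PP2C genes PP2C53, PP2C09 and PP2C51 differed by 0.65, 0.40 and -0.14, each less than its standard error.

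Between the cultivars, EM alone passed the methods' threshold. In HF 4D against ZH 4D, 1 of 28 was higher and 0 lower, where 0.903% and 0.973% of all probe sets tested were, and the difference of EM was 2.83 (SE 1.11, limma adjusted p = 1.0), with 0.76 and 4.90 within the replicate numbers. In HF 4D-2DC against ZH 4D-2DC, 0 of 28 were called, where 0.306% and 0.990% of all probe sets tested were higher and lower. Of the PP2C genes outside the 4, PP2C51 differed before cold by 1.05 (SE 0.89; 1.22 and 0.89 within the replicate numbers). PP2C09 differed by 0.98 (2.16 and -0.20) and PP2C53 by 0.57 (1.88 and -0.75), with signs that turned between the replicate numbers. After cold all 3 turned: PP2C09 gave 0.48 and -0.10, PP2C51 -0.22 and 0.77, and PP2C53 0.88 and -0.17.

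**Figure D4:**
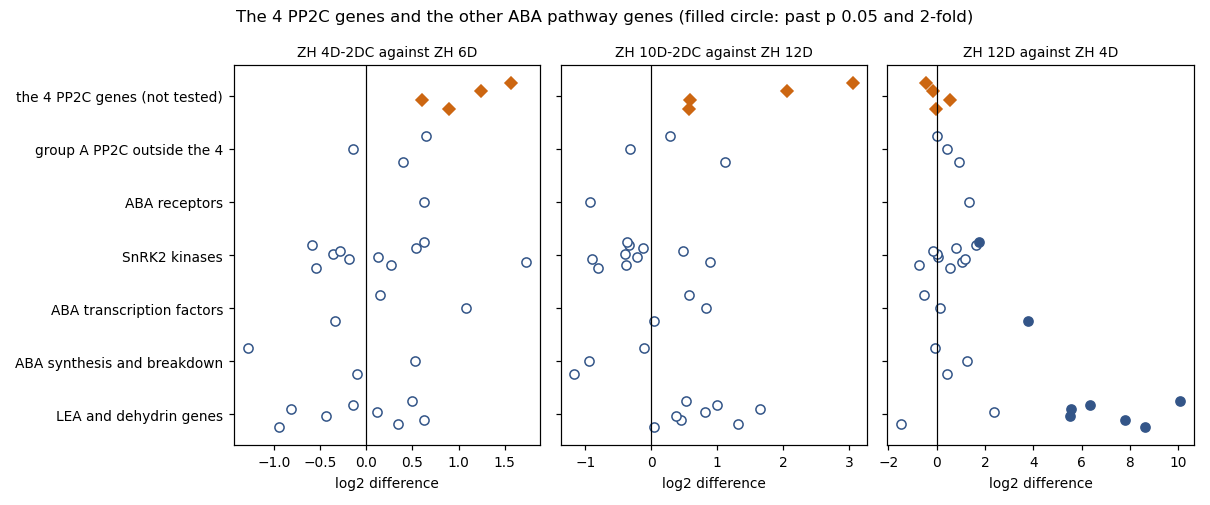
Log2 differences (horizontal axis) of the 4 PP2C genes (diamonds, not tested) and of 28 other ABA pathway genes by list (circles) in 3 comparisons; filled circles passed an unadjusted p under 0.05 and 2-fold in limma. The filled circles, 8 of 28, all lie in ZH 12D against ZH 4D, where the 4 PP2C genes have a median of -0.08.

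The 4 genes did not share 1 profile. Over the 8 condition means, OsPP2C30 and PP2C68 had a Pearson correlation of 0.89, with 0.75 over the 8 arrays of replicate 1 and 0.99 over those of replicate 2. OsPP2C08 and OsPP2C30 had 0.73, with 0.92 and 0.62. OsPP2C08 and PP2C68 had 0.43, with 0.68 and 0.52. These 3 genes thus varied together within both replicate numbers. The correlations of OsPP2C06 with the others changed sign between the replicate numbers: with PP2C68 it was -0.25 over replicate 1 and 0.79 over replicate 2, with OsPP2C30 -0.46 and 0.78, and with OsPP2C08 -0.46 and 0.41. All these are descriptions, over points that come from the same arrays.

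**Figure D5:**
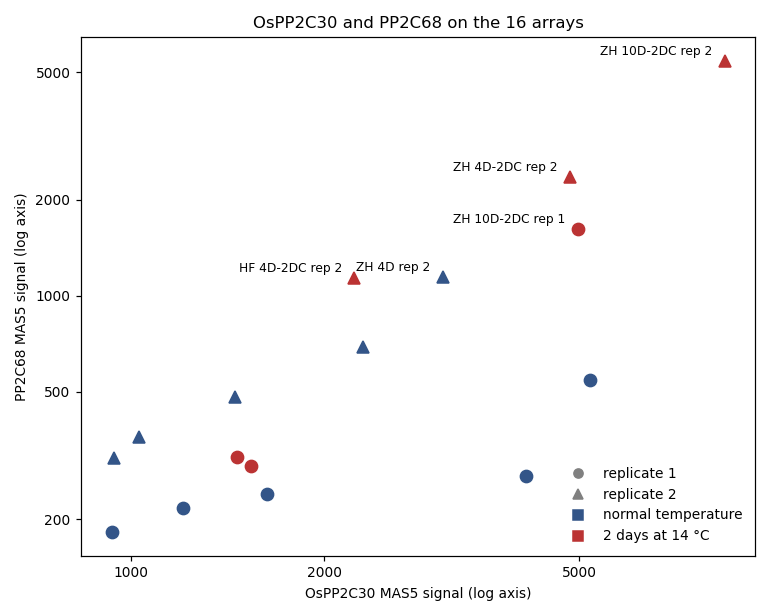
Signal of PP2C68 (vertical, log scale) against OsPP2C30 (horizontal, log scale) on the 16 arrays; circles are replicate 1, triangles replicate 2, blue is normal temperature and red is 2 days at 14 °C. The correlation of log2(signal + 16) is 0.79 over the 16 arrays, and the triangles lie above the circles at a like OsPP2C30 signal.

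Among the 75 genes with a RefSeq name of their own and a tested probe set, the profiles most like each PP2C gene over the 8 condition means were the following. For PP2C68 they were MYBS2, a MYB factor of sugar signaling, at a correlation of 0.85 (0.55 and 0.64 within the replicate numbers), PRX112, a peroxidase, at 0.67, and BIP1, a chaperone of the endoplasmic reticulum, at 0.63. For OsPP2C30 they were PP2C68 itself at 0.89, the heat shock factor HSFA2D at 0.65 and PRX112 at 0.64. For OsPP2C08 they were ASA2, of tryptophan synthesis, at 0.91, the kinesin KIN4A at 0.79 and the hemoglobin NSHB1 at 0.69. ASA2 had low signals, of 4.89 to 189, and only 0.58 and 0.70 within the replicate numbers. For OsPP2C06 they were MAGO2 at 0.69, MYBS2 at 0.67 and PP2C68 at 0.65. MYBS2, PRX112 and PP2C68 each stood among the closest profiles of more than 1 of the 4 genes. The pool of 75 was small beside all the probe sets tested. Of those, 80 were at least as close to OsPP2C30 as PP2C68, itself included, and 2449 at least as close to OsPP2C08 as NSHB1. These were the fewest and the most for the genes listed. MYBS2 and OsPP2C06 had only 0.28 and 0.20 within the replicate numbers.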

How the data were processed

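The authors deposited 1 intensity per probe set and array, made with MAS5 per the labels, while the study's methods name GC-RMA; the scale is linear with a 2% trimmed mean of 500 on every array. The deposited table held 57381 probe sets, 187 of them controls. Here, log2(signal + 16) was taken for the 34331 probe sets whose mean lay above the 40th percentile. These values were fitted with limma 3.58.1 (R 4.3.3), with 1 coefficient per condition over all 16 arrays. The p-values were adjusted by Benjamini-Hochberg over all of these probe sets. The fit was tested on simulated data with noise independent between arrays and smaller than the spread of the 4 genes. That test does not show how the fit performs on these arrays. The 4 genes, the pathway lists and the naming rule were chosen with earlier results of these data known. The rule names the 4 genes, from each list up to 4 genes past the methods' threshold or otherwise the 2 brightest, and the 3 named genes closest in profile; other pathway genes and the comments on them were chosen after their values were seen. Genes came from GEO's platform annotation: 22436 probe sets had 1 gene, 95 several and 34850 none, and all 22436 matched RefSeq. Lists were found by symbol and synonym only, and for a gene with several probe sets the one of highest mean was used. No sequence or genome position was used here. Alternatives were a replicate block, quantile normalization, pseudocounts of 1 and 64, no filter and leaving out each array.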

Additional observations from a re-analysis of the deposited data

Results flagged for a closer look

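PYL11, an ABA receptor gene, had differences of opposite sign in ZH at the 2 ages, neither of which passed a threshold. Its arrays did not overlap at either age. In ZH 4D-2DC against ZH 6D, 12.4% of all probe sets tested were higher without overlap. The share lower without overlap in ZH 10D-2DC against ZH 12D is not given here, and nothing is read from the lack of overlap. After cold from 10 DAF the PYL11 signals were 805 and 1887 against 2314 and 2409 in ZH 12D, a log2 difference of -0.93. After cold from 4 DAF they were 1507 and 2022 against 1007 and 1257 in ZH 6D, a difference of 0.63. The contrast of these differences was -1.55 (SE 0.90, limma adjusted p = 1.0 over all probe sets tested) and did not pass.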

How the results depend on the processing

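Of the 20 differences of the 4 genes over 5 comparisons, 17 kept their sign under the 6 settings that used all arrays, and 9 kept it also when any 1 array was left out. The replicate block and the lack of a filter cannot change these differences by design. Among the settings with all arrays, only quantile normalization and the pseudocounts could have turned a sign. After cold in ZH from 10 DAF (with ZH 12D as control), PP2C68 ranged from 2.20 to 3.94 and OsPP2C30 from 1.68 to 2.44 when 1 array was left out, and the median of the 4 genes from 1.09 to 1.74. That median ranged from 0.27 to 1.69 after cold in ZH from 4 DAF (control ZH 6D), from -0.70 to 1.17 between HF and ZH before cold, from -1.11 to 0.43 between HF and ZH after it, and from -0.59 to 0.78 with the age of ZH seeds (ZH 12D from ZH 4D). Before cold it was 0.37 without both arrays of low endosperm genes. An array left alone in its condition was assumed to vary like the others.

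The replicate numbers went together in their deviations (correlations of 0.216 to 0.638 over 28 pairs of conditions), but the labels do not say what a number shares. With the replicate number as a block, the count of pathway genes past the methods' threshold moved from 0 to 1 (SAPK1) for cold in ZH from 4 DAF, with or without quantile normalization. The block together with quantile normalization also took the count between HF and ZH before cold from 1 to 3 and that with age from 8 to 13, of which 12 were higher and 1 (DHN1, -1.69) lower; with age the block alone gave 12 and a pseudocount of 64 gave 11, all higher. Quantile normalization gave 1 (RAB16C) for cold in ZH from 10 DAF with or without the block, as did a pseudocount of 64, and without the block 2 between HF and ZH before cold, as did leaving out both low-endosperm arrays. With 1 array left out the counts were 0 to 1 for cold in ZH from 4 DAF, 0 to 0 for cold from 10 DAF, 0 to 4 between HF and ZH before cold (4 without HF 4D replicate 1, 0 without HF 4D replicate 2), 0 to 1 after cold and 8 to 10 with age. The 6 adjusted calls with age numbered 5 with a pseudocount of 1 or with no filter, LEA3 being lost (limma adjusted p = 0.0848 and 0.0682). The causes were not tested. The GC-RMA summary of the methods was not run, since it needs probe values.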

Other observations

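When the search for like profiles took in all 2226 genes with any RefSeq name, a choice made after seeing the data, other genes stood closer to the 4. PP2C68 was closest to GSTU6, a glutathione S-transferase, with a correlation of 0.94 over the 8 condition means and 0.78 and 0.95 over the arrays of replicates 1 and 2. EP3A came next at 0.92 (0.76 and 0.50), and then HOX24, a homeodomain-leucine zipper factor, at 0.91, with 0.55 and 0.93. OsPP2C08 was close to Cfi, a chalcone isomerase, at 0.96 (0.91 and 0.91) and to CPK20, a calcium-dependent kinase, at 0.94 (0.96 and 0.64). OsPP2C30 was close to IAA23, an Aux/IAA protein, at 0.91 (0.57 and 0.86). For OsPP2C06 the closest, CC-1, reached 0.96 over the means but only 0.03 and 0.38 within the replicate numbers. Not every close gene is named here. GPA3, at 0.97, stood above Cfi for OsPP2C08, and GAP1 (0.94) and HSF2 (0.92) stood above IAA23 for OsPP2C30. All these values come from the top of 2226 and carry no test.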
